A study of Mus musculus with 6 samples.

Results

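The genes described here encode the machinery of mitosis and chromosome segregation: the kinases and cyclins that start division, the spindle checkpoint, centromeres and kinetochores, cohesin and condensin, mitotic motors and cytokinesis proteins. They were chosen by gene symbol, with a pattern that takes in symbols such as Kif, Cenp, Bub, Plk, Cdca, Smc and Ncap followed by a number or letter. The pattern found 73 genes on 104 probes, of 7774 named genes on 11097 probes in the deposited array table, and the brightest probe stood for a gene. Because it works on symbols, it also takes in motors and paralogues that work outside mitosis, which are named as such. Symbols of the pattern with no probe in the table, such as Ccnb1, were not analysed here.

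The cells were endoderm made from R1 mouse embryonic stem cells that carry a Sox17-GFP reporter, in which the green fluorescent protein marks cells that use the endoderm gene Sox17. They were differentiated with Activin A and Wnt3A for 6 days and sorted for GFP. Group P0 was the unpassaged endoderm on gelatin. The other groups were GFP-positive cells passaged 6 times on mouse mesenchyme 1 or on mouse mesenchyme 2, and sorted for GFP again before RNA was taken. Every group thus shared the cell line, the reporter, the growth factors and the sort, and the labels do not say what the mesenchymes are. Each group had 2 Illumina arrays, called technical duplicates in the series design, so the p-values measure only the spread between arrays and not that between cultures.

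The medians of all 8396 features lay between 151 and 164 intensity units on the 6 arrays. Of 6 definitive endoderm markers only Sox17 had a named probe, and its level was 96.5 at P0, 81.8 on mesenchyme 1 and 701 on mesenchyme 2. Fibroblast and mesenchyme markers were measured for 5 of 14 genes, and their summed intensity was 3847 to 4138 at P0, 5593 to 5985 on mesenchyme 1 and 6035 to 6272 on mesenchyme 2. Within that list Thy1, Twist1, Pdgfra, Col5a1 and Acta2 were measured, and Col1a1, Col1a2 and Col3a1 had no named probe. Pdgfra, also an early endoderm receptor, rose by 3.75 (log2) on mesenchyme 2 against P0. The 5 did not move alike: on mesenchyme 2 against P0, 3 differences were positive and 2 negative, with a median of 0.09 and a lowest of -0.35. On mesenchyme 1 against P0, 3 were positive and 2 negative, from -0.81 to 1.06. Parietal endoderm markers, measured for 9 of 11 genes, summed to 4161 to 4473 at P0, 4440 to 4579 on mesenchyme 1 and 27748 to 28575 on mesenchyme 2, where 9 of 9 rose against P0. The 6 pluripotency markers summed to 10601 to 11249, 9362 to 9418 and 6058 to 6141 in the same order. These lists moved alongside the results below, and their part in them was not tested.

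A cell that enters mitosis activates the kinase Cdk1 with its cyclins, condenses its chromosomes, attaches each kinetochore to spindle microtubules and waits at the spindle checkpoint until all are attached. The anaphase-promoting complex then frees separase, which cuts cohesin, and the cell divides. Many of these genes are transcribed mainly in G2 and M phase, so in a mixed population their RNA follows the share of cells near division; embryonic stem cells, which cycle fast, are known for high levels. Their promoters are known for a pair of short elements near the start site, the CCAAT box bound by NF-Y and the cell cycle genes homology region bound by the MuvB complexes, which repress these genes in resting cells and activate them in dividing ones.

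Many mitosis genes were lower on mesenchyme 2 than in either other group. A gene was called when its adjusted p in limma was under 0.05 and the groups' geometric means differed at least 2-fold. Between mesenchyme 2 and P0, 14 of 73 members fell (19.2%), where 8.46% of all features did, and none rose, where 10.3% of all features did, with 11 members higher at an unadjusted p under 0.05. Between mesenchyme 2 and mesenchyme 1, 19 fell (26.0%), against 11.5% of all features, and 1 rose (1.37%), against 13.9%. Between mesenchyme 1 and P0, 3 rose (4.11%), against 2.62%, and none fell, against 2.86%, with 12 members lower at an unadjusted p under 0.05 in limma.

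The shift was broader than these calls. With no limit on the fold, 46 of 73 members (63.0%) were lower on mesenchyme 2 than at P0 at adjusted p under 0.05, where 30.9% of all features were, and 10 were higher, where 33.6% of all features were. Against mesenchyme 1, 48 (65.8%) were lower, beside 33.8% of all features, and 6 were higher, beside 35.9%. On mesenchyme 1, 24 were higher and 10 lower than at P0, beside 23.9% and 24.2% of all features. The median member difference was -0.53 (log2) for mesenchyme 2 minus P0, -0.60 for mesenchyme 2 minus mesenchyme 1 and 0.12 for mesenchyme 1 minus P0, beside all-feature medians of 0.02, 0.02 and -0.02. Comparisons with P0 share its arrays, and both comparisons of mesenchyme 2 share the mesenchyme 2 arrays. RNA came from whole sorted populations, so fewer dividing cells and less of each RNA per cell cannot be told apart.

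Across the members, the median intensity was 262 and 302 on the P0 arrays, 324 and 326 on the mesenchyme 1 arrays and 238 and 236 on the mesenchyme 2 arrays. Both mesenchyme 2 arrays lay below both P0 arrays for 53 members (72.6%), where they did for 40.2% of all features, and below both mesenchyme 1 arrays for 55 (75.3%), where they did for 41.5%. Mesenchyme 2 held the lowest group level for 57 members (78.1%), beside 39.3% of all features, and of the 57, 33 were highest on mesenchyme 1 and 24 at P0. In all, 23 members (31.5%) were called in some comparison, a share close to the 31.1% of all features, and 50 in none. In both comparisons of mesenchyme 2, 13 (17.8%) fell, beside 6.03% of all features. The standard error of a log2 difference ranged over the members from 0.0829 to 0.220.

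**Figure D1:**
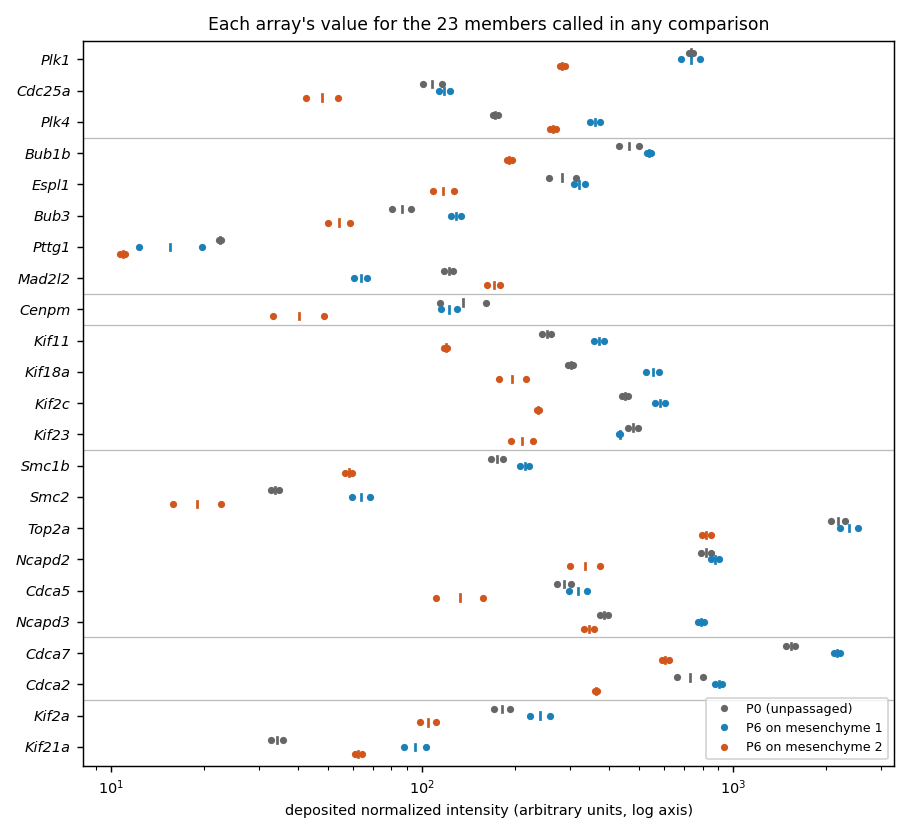
Intensity on each array (log axis, deposited units) for the 23 called genes, grouped by role. Points are single arrays of P0, mesenchyme 1 and mesenchyme 2, and ticks are geometric group means. For most genes the mesenchyme 2 arrays sit lowest, while Mad2l2 is highest there and Plk4 and Kif21a are lowest at P0.

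Promoter sequences from RefSeq (assembly GRCm38.p6, 250 bases before to 50 after each start) were found for 66 of the 73 members, which have 76 promoters. The following stretches, 150 bases before to 50 after the start, show 8 genes that fell on mesenchyme 2 and, last, Kif21a, which rose on mesenchyme 1. They run 5′ to 3′ in the direction of the gene, and capitals mark matches to TTTGAA (reverse TTCAAA), the cell cycle genes homology region, and to CCAAT (reverse ATTGG), the CCAAT box. On the plus strand they lie at chr7:122159285-122159484 for Plk1, chr2:118598061-118598260 for Bub1b, chr15:102296143-102296342 for Espl1, chr19:6084947-6085146 for Cdca5 and chr19:37376232-37376431 for Kif11. On the minus strand they lie at chr11:99024140-99024339 for Top2a, chr9:61946750-61946949 for Kif23, chr15:82244287-82244486 for Cenpm and chr15:91049902-91050101 for Kif21a.
Plk1: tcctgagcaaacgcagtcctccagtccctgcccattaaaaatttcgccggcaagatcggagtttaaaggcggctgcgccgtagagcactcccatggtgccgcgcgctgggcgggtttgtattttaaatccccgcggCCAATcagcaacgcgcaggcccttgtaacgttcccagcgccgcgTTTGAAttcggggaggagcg
Bub1b: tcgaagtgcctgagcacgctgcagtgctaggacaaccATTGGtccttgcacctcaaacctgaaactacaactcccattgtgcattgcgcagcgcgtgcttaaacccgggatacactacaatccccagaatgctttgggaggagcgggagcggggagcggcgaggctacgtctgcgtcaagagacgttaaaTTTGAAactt
Espl1: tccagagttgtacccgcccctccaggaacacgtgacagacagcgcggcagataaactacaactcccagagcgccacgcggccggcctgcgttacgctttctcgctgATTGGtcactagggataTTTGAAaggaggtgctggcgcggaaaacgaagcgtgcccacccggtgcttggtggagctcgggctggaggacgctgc
Top2a: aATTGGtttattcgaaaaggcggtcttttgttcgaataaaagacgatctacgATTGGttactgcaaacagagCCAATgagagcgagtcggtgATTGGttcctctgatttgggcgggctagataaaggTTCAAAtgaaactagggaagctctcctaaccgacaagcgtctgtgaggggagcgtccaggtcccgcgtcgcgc
Cdca5: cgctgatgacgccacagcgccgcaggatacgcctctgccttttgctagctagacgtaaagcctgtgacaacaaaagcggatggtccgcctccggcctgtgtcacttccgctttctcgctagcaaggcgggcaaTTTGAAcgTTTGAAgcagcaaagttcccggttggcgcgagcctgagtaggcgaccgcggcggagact
Kif11: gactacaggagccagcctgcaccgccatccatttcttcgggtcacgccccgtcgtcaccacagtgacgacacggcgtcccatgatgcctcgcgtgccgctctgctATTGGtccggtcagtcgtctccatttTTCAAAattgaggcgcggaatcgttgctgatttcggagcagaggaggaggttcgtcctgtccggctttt
Kif23: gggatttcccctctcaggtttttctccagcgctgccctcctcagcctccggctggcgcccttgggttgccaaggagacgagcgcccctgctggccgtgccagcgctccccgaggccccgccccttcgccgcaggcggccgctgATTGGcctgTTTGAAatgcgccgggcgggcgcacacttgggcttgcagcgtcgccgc
Cenpm: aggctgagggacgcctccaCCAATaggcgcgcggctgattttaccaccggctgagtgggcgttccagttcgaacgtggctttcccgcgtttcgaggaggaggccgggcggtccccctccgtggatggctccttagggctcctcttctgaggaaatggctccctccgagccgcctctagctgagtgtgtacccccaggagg
Kif21a: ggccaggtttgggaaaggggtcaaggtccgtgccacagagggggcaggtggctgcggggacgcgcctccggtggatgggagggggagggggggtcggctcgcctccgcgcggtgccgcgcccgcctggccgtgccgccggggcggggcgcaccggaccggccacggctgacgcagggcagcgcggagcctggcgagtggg

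Plk1, Bub1b, Espl1, Top2a, Kif11 and Kif23 held both elements in the printed stretch, with the homology region nearer to the start or after it. Cdca5 held the homology region in 2 copies and no CCAAT box in this stretch. Cenpm held a CCAAT box only, and Kif21a neither. Only exact matches were searched, and variants of the elements were not counted. The printed genes were picked by hand from the called members and do not stand for all of them. Among genes not printed that fell on mesenchyme 2 against P0, Cdc25a, Cdca7, Pttg1 and Smc1b held no TTTGAA, and Ncapd2 held 1 match. A match is a description of the letters and not of binding.

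TTTGAA on either strand occurred in 33 of the 76 promoters of members (43.4%) and in 17.9% of all 32851 promoters in the table. Within 50 bases of the start it occurred in 36.8% of the members' promoters and in 4.94% of all. CCAAT on either strand occurred in 42 (55.3%) and in 37.4% of all, and both elements together in 25 (32.9%) and in 6.95% of all. GGCGGGAA on either strand, an E2F-type site, occurred in 3 (3.95%) and in 2.19% of all. Matches of different motifs can share only their end letters, and 9 members have more than 1 promoter, some with overlapping windows. Counted by gene, 31 of 66 members (47.0%) and 20.2% of 27025 genes held TTTGAA. Among roles, it occurred in 7 of 8 promoters of mitotic kinesins, 6 of 10 of checkpoint genes and 0 of 10 of the other kinesins. It occurred in 8 of 13 promoters of members that fell on mesenchyme 2 against P0 and in 25 of the other 63.

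**Figure D2:**
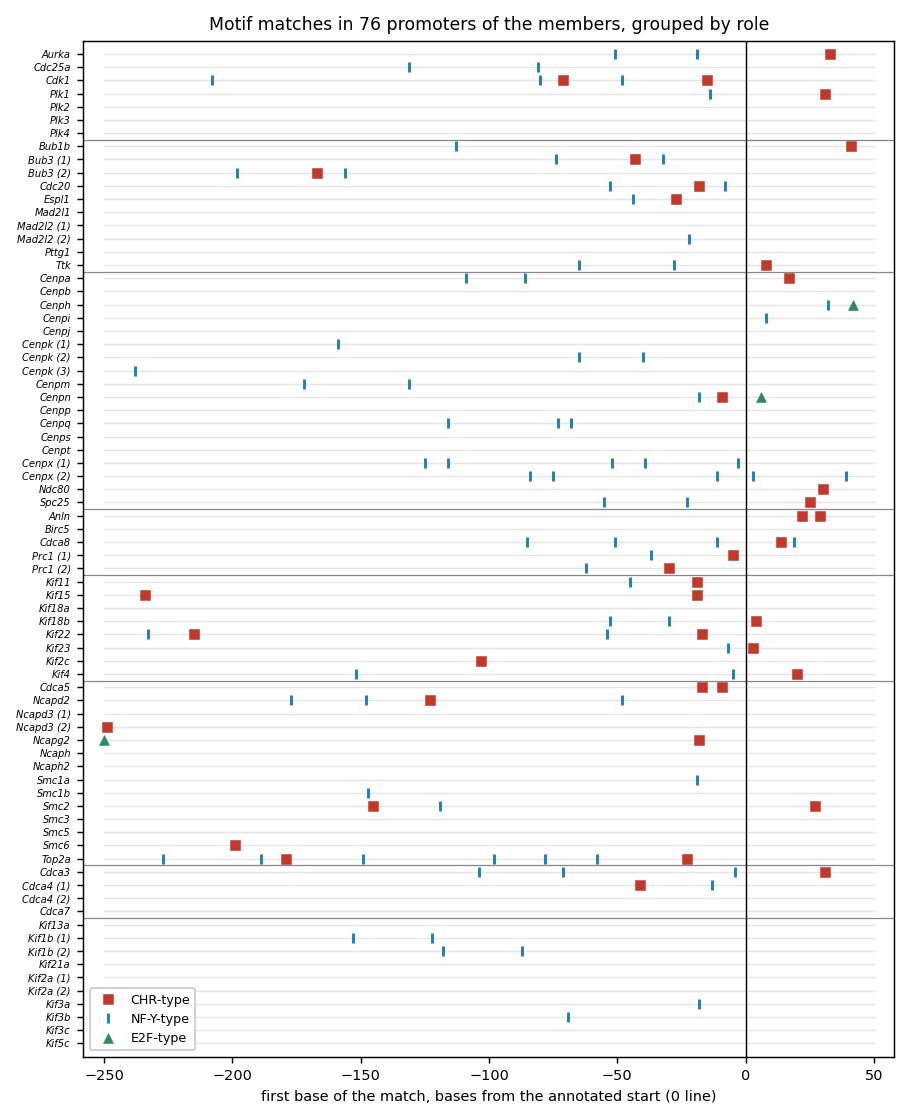
Positions of the matches along the 76 promoters, in bases from the start site, 1 row a promoter grouped by role. CHR-type is the homology region (TTTGAA), NF-Y-type the CCAAT box and E2F-type GGCGGGAA. Matches to the homology region gather close to the start, and the rows of the other kinesins hold none.

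Mitotic entry was represented by 10 kinases, phosphatases, cyclins and their partners. On mesenchyme 2, 2 of the 10 fell against both other groups, beside 6.03% of all features. The role's median there was -0.44 (log2) against P0 and -0.72 against mesenchyme 1. Plk1, the Polo-like kinase that drives centrosome maturation and mitotic exit steps, read 721 and 747 at P0, 682 and 786 on mesenchyme 1 and 279 and 289 on mesenchyme 2. Both mesenchyme 2 arrays lay far below the other 4, whose values overlapped. The log2 difference of mesenchyme 2 was -1.37 ± 0.101 (SE, 2 arrays a group) from P0, a 2.59-fold fall with adjusted p = 4.76e-05, and -1.37 ± 0.101 from mesenchyme 1.

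Cdc25a, a phosphatase that activates cyclin-dependent kinases at S phase and mitosis, read 116 and 101 at P0, 123 and 114 on mesenchyme 1 and 42.5 and 53.9 on mesenchyme 2. It fell 2.26-fold against P0 (adjusted p = 0.000376) and 2.48-fold against mesenchyme 1 (adjusted p = 0.000169); with 16 added to every intensity its fall against P0 was -0.96 (log2) and no longer 2-fold, and with 50 added the falls were -0.69 and -0.78. Cdk1, Aurka (the centrosome kinase), its activator Tpx2 and the cyclin Ccna2 did not reach 2-fold. Their differences from P0 were -0.83, -0.93, -0.32 and -0.56 on mesenchyme 2, all at adjusted p under 0.05.

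The Polo-like kinases did not move alike. Plk4, which starts centriole duplication, read 169 and 176 at P0, 373 and 347 on mesenchyme 1 and 259 and 271 on mesenchyme 2. The 3 groups did not overlap, with P0 lowest and mesenchyme 1 highest. It rose 2.09-fold on mesenchyme 1 (log2 1.06 ± 0.0896, adjusted p = 0.000432), which became 0.995 (log2) with 16 and 0.88 with 50 added to every intensity, both under 2-fold. Plk2 and Plk3, kinases known mainly for stress responses, were 0.75 and 0.70 (log2) above P0 on mesenchyme 2, at adjusted p of 0.00142 and 0.000852 but under 2-fold. Cdc25c differed by no more than 0.15 (log2) in any comparison.

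The spindle checkpoint and anaphase control held 8 members. On mesenchyme 2, 7 of the 8 were lower than at P0 at adjusted p under 0.05, beside 30.9% of all features. Bub1b, the checkpoint kinase BubR1, read 501 and 431 at P0, 531 and 547 on mesenchyme 1 and 188 and 195 on mesenchyme 2. Espl1, the separase that cuts cohesin, read 257 and 313, 308 and 336, and 127 and 109 in the same order. For both genes each mesenchyme 2 array lay below every other array. Bub1b fell by 1.28 ± 0.102 on the log2 scale against P0 (adjusted p = 6.74e-05) and by 1.49 ± 0.102 against mesenchyme 1. Espl1 fell by 1.27 ± 0.131 (adjusted p = 0.000204) and by 1.45 ± 0.131; with 50 added to every intensity the first was -0.99, under 2-fold.

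Bub3, the partner that brings Bub1b to kinetochores, read 80.6 and 92.4 at P0, 125 and 134 on mesenchyme 1 and 58.7 and 50.1 on mesenchyme 2. The 3 groups stood apart, and the gene fell 2.38-fold between mesenchyme 1 and mesenchyme 2 (adjusted p = 9.91e-05), while the 1.59-fold difference from P0 stayed under 2-fold. With 50 added the fall was -0.78 (log2), under 2-fold. Ttk, the kinase that starts checkpoint signalling, had the same order with smaller differences, 0.56 (log2) above P0 on mesenchyme 1 and -0.26 on mesenchyme 2. Cdc20, the activator of the anaphase-promoting complex, and Mad2l1, which inhibits it, were -0.85 and -0.53 from P0 on mesenchyme 2, both at adjusted p under 0.05.

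Pttg1, the securin that holds separase inactive, fell 2.05-fold on mesenchyme 2 against P0 (adjusted p = 0.00357). Its probe was dim, with group levels of 22.4 at P0, 15.6 on mesenchyme 1 and 10.9 on mesenchyme 2. The fall was -0.51 (log2) with 16 added, -0.25 with 50 added and -0.92 after quantile normalization, none of which reached 2-fold.

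Mad2l2 went the other way. Despite its symbol it is known mainly as REV7, a subunit of translesion polymerase zeta and of the shieldin complex in DNA repair. It read 118 and 127 at P0, 66.8 and 60.6 on mesenchyme 1 and 162 and 179 on mesenchyme 2. The 3 groups did not overlap, and it rose 2.68-fold on mesenchyme 2 against mesenchyme 1 (log2 1.42 ± 0.102, adjusted p = 2.86e-05). The rise was 0.96 (log2), under 2-fold, with 50 added to every intensity. It was 1.92-fold lower on mesenchyme 1 than at P0 (adjusted p = 0.000911), under the 2-fold limit.

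Centromere and kinetochore genes, with 16 members, had median differences of -0.27 (log2) on mesenchyme 2 against P0 and -0.18 against mesenchyme 1. Cenpm, a member of the constitutive centromere network, was the one gene called. It read 114 and 162 at P0, 130 and 116 on mesenchyme 1 and 48.6 and 33.4 on mesenchyme 2, so that mesenchyme 2 lay lowest and the other groups overlapped. It fell 3.37-fold against P0 (log2 -1.75 ± 0.220, adjusted p = 0.000498) and 3.05-fold against mesenchyme 1 (adjusted p = 0.000583). With 50 added to every intensity the differences were -1.04 and -0.93 (log2), the second under 2-fold. Its other probes gave -1.90 and -1.93 against P0.

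Other kinetochore genes on mesenchyme 2 spread from -0.89 (Cenpx, a small histone-fold protein that also acts in DNA repair) to 0.35 (Spc24) against P0. Cenpa, the histone variant that marks centromeres, was -0.84 ± 0.110 from P0 (adjusted p = 0.00061) and already -0.40 on mesenchyme 1 (adjusted p = 0.0232). Ndc80 and Spc25, subunits of the outer complex that grips microtubules, differed from P0 by -0.16 and -0.15 on mesenchyme 2, at adjusted p of 0.162 and 0.269. With no limit on the fold, 8 of the 16 were lower and 1 higher than P0 on mesenchyme 2, beside 30.9% and 33.6% of all features.

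None of the 5 genes of the chromosomal passenger complex and cytokinesis was called in any comparison by limma. All 5 were lower on mesenchyme 2 than at P0 at an unadjusted p under 0.05. At an adjusted p under 0.05, 4 were lower, beside 30.9% of all features. Prc1, which bundles the midzone microtubules, read 2309 and 2369 at P0, 2546 and 2861 on mesenchyme 1 and 1757 and 1702 on mesenchyme 2. The mesenchyme 2 arrays lay below the others at -0.44 (log2) from P0. The passenger proteins Birc5 (survivin), Cdca8 (borealin) and Incenp differed from P0 by -0.77, -0.73 and -0.60 on mesenchyme 2. Birc5 was already -0.51 from P0 on mesenchyme 1 (adjusted p = 0.00853 in limma). Its difference between the mesenchymes was -0.26 (adjusted p = 0.063 in limma). Anln, the cleavage furrow scaffold anillin, was 0.58 above P0 on mesenchyme 1 (adjusted p = 0.00994) and -0.33 on mesenchyme 2 (adjusted p = 0.0527).

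**Figure D3:**
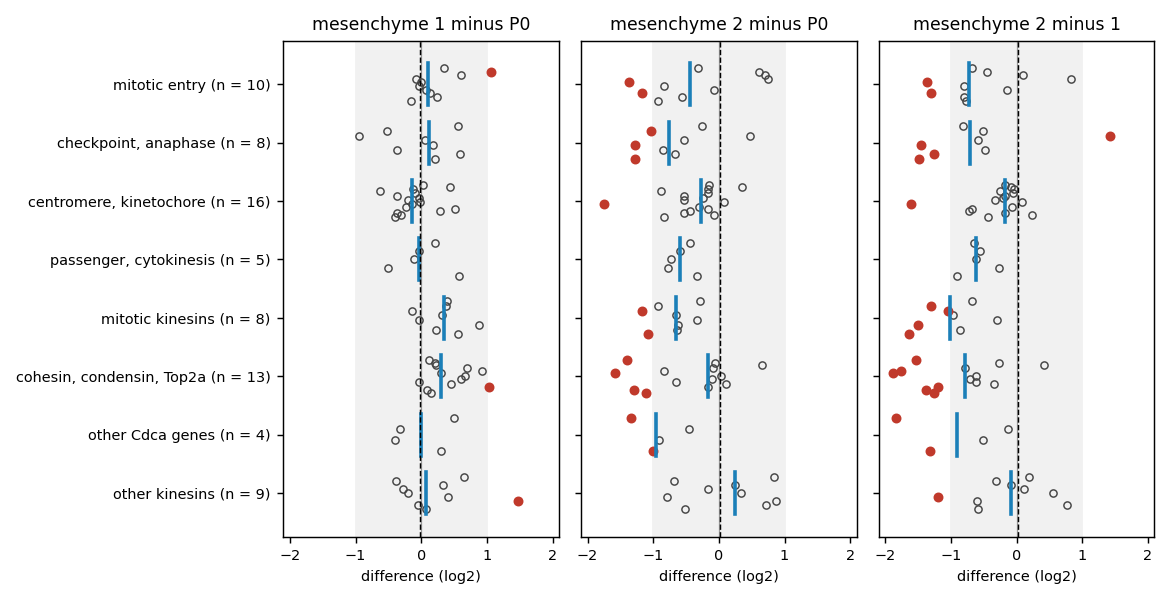
Log2 differences of all 73 members by role in the 3 comparisons. Red points were called, open points were not, blue bars are role medians, the grey band spans 1 log2 unit either side of 0 and the dashed line is the median of all features; most points of mesenchyme 2 lie to the negative side and those of the other kinesins scatter around 0.

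Cohesin, condensin and topoisomerase genes, 13 in all, were mostly higher on mesenchyme 1 by their brightest probes. There 12 of 13 differences from P0 were positive, where 4044 of all 8396 features were, with a median of 0.30 (log2). At adjusted p under 0.05, 7 of the 13 were higher, beside 23.9% of all features. On mesenchyme 2, 4 fell against P0 (30.8%, beside 8.46% of all features) and 6 against mesenchyme 1 (46.2%, beside 11.5%). Top2a, the topoisomerase that untangles sister chromatids, read 2292 and 2065 at P0, 2215 and 2520 on mesenchyme 1 and 794 and 850 on mesenchyme 2. It fell 2.65-fold against P0 (log2 -1.41 ± 0.108, adjusted p = 5.76e-05) and 2.88-fold against mesenchyme 1, whose arrays overlapped those of P0.

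Subunits of condensin I and condensin II, the complexes that compact chromosomes, had unlike values; the difference between the complexes was not tested. Ncapd2, a subunit of condensin I, read 791 and 853 at P0, 852 and 902 on mesenchyme 1 and 300.4 and 375 on mesenchyme 2, and fell 2.45-fold against P0 (adjusted p = 0.000148). P0 and mesenchyme 1 overlapped barely, and mesenchyme 2 lay below both. Its condensin II counterpart Ncapd3 rose 2.04-fold on mesenchyme 1 against P0 (log2 1.03 ± 0.0913, adjusted p = 0.000487) and fell 2.28-fold from there on mesenchyme 2 (adjusted p = 3.8e-05), where it was -0.16 from P0. The rise was 0.99 (log2), under 2-fold, without the first P0 array, 0.997 without the first mesenchyme 1 array, 0.99 after quantile normalization and 0.95 with 50 added. Ncaph2, also of condensin II, was 0.61 above P0 on mesenchyme 1 and -0.10 from it on mesenchyme 2, while Ncaph of condensin I was -0.03 and -0.65. The other probes of Ncaph2 gave 0.59 and -0.03 on mesenchyme 1.

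Smc2, the core subunit of both condensins, had a dim probe that read 34.7 and 32.8 at P0, 68.2 and 59.8 on mesenchyme 1 and 15.8 and 22.7 on mesenchyme 2. The 3 groups stood apart, and it fell 3.37-fold between mesenchyme 1 and mesenchyme 2 (log2 -1.75 ± 0.172, adjusted p = 0.000118), which became -0.72, under 2-fold, with 50 added. By their brightest probes, the cohesin core subunits Smc1a and Smc3 were 0.66 and 0.70 (log2) above P0 on mesenchyme 1, at adjusted p of 0.00143 and 0.00159. They were 0.04 and -0.09 from P0 on mesenchyme 2. The other probes of Smc1a went the other way on mesenchyme 1, at -0.13 and -0.33 from P0, so its rise there depends on the probe. The dim probe of Smc3 gave 0.38. Cdca5 (sororin), which holds cohesin on chromosomes, fell 2.17-fold on mesenchyme 2 against P0 (adjusted p = 0.00126) and 2.40-fold against mesenchyme 1; the first became -0.86 (log2) without the first mesenchyme 2 array and -0.88 with 50 added, both under 2-fold.

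Smc1b, the cohesin subunit known from meiosis, read 183 and 167 at P0, 222 and 207 on mesenchyme 1 and 59.8 and 56.7 on mesenchyme 2. No groups overlapped, and it fell 3.00-fold against P0 (adjusted p = 2.16e-05) and 3.68-fold against mesenchyme 1 (adjusted p = 7.6e-06). Smc5, of the complex that resolves DNA repair intermediates, was 0.66 (log2) above P0 on mesenchyme 2 (adjusted p = 0.00294), and its partner Smc6 was -0.06 from it.

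All 8 mitotic kinesins, by their brightest probes, were lower on mesenchyme 2 than in either other group at adjusted p under 0.05. Of all features, 30.9% were lower there than at P0 and 33.8% lower than on mesenchyme 1. The role medians were -0.65 (log2) against P0 and -1.01 against mesenchyme 1. The other probes of Kif18b gave smaller differences on mesenchyme 2 against P0, -0.23 and -0.07. Against mesenchyme 1 these probes gave -0.39 and -0.15. Kif11 (Eg5), which pushes spindle poles apart, read 244 and 260 at P0, 358 and 386 on mesenchyme 1 and 118 and 121 on mesenchyme 2. The groups stood apart. It fell 2.11-fold against P0 (log2 -1.08 ± 0.0907, adjusted p = 8.4e-05) and 3.11-fold against mesenchyme 1 (adjusted p = 1.04e-05), and the first became -0.99 (log2) with 16 and -0.83 with 50 added, under 2-fold.

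Kif23 (MKLP1), a motor of the central spindle, read 459 and 495 at P0, 436 and 431 on mesenchyme 1 and 194 and 229 on mesenchyme 2. It fell 2.26-fold against P0 (adjusted p = 0.000122) and 2.06-fold against mesenchyme 1 (adjusted p = 0.000154), the latter -0.92 (log2) without the first mesenchyme 2 array, -0.99 with 16 added and -0.89 with 50 added, all under 2-fold. Kif18a, which limits the swing of chromosomes at the metaphase plate, read 308 and 295, 580 and 527, and 217 and 177 at P0, mesenchyme 1 and mesenchyme 2. Kif2c (MCAK), which depolymerises microtubules at centromeres, read 441 and 462, 562 and 606, and 238 and 236.

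Kif18a and Kif2c were each highest on mesenchyme 1 and lowest on mesenchyme 2, with no overlap of groups. They fell 2.82-fold and 2.47-fold between the mesenchymes, at adjusted p of 4.83e-05 and 2.36e-05. Against P0 on mesenchyme 2 they were -0.62 and -0.93 (log2), under 2-fold. The chromokinesins Kif22 and Kif4 and the spindle motors Kif15 and Kif18b were not called, with differences from -0.97 to -0.30 (log2) between the mesenchymes.

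The 9 other kinesins, which carry cargo or shape microtubules outside the spindle, had medians of 0.24 (log2) on mesenchyme 2 and 0.07 on mesenchyme 1 against P0. Kif21a, a motor that restrains microtubule growth, read 32.8 and 35.9 at P0, 103 and 87.9 on mesenchyme 1 and 64.3 and 60.9 on mesenchyme 2. P0 lay lowest and mesenchyme 1 highest. It rose 2.77-fold on mesenchyme 1 against P0 (log2 1.47 ± 0.110, adjusted p = 0.000323), which became 0.78 (log2), under 2-fold, with 50 added to every intensity.

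Kif2a, a microtubule depolymerase of neurons and also of spindle poles, read 192 and 171 at P0, 223 and 258 on mesenchyme 1 and 111 and 99.1 on mesenchyme 2. It fell 2.29-fold between the mesenchymes (adjusted p = 0.000122; -0.90 on the log2 scale, under 2-fold, with 50 added) and was -0.79 (log2) from P0. The transport motors Kif5c, Kif1b and Kif3a were 0.84, 0.72 and 0.34 (log2) above P0 on mesenchyme 2, each at adjusted p under 0.05 and under 2-fold. With these 9 left out, 14 of 64 members (21.9%) fell on mesenchyme 2 against P0, beside 8.46% of all features. Against mesenchyme 1, 18 of 64 (28.1%) fell, beside 11.5% of all features.

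Of the 4 remaining Cdca genes, 2 fell on mesenchyme 2 against both other groups, beside 6.03% of all features. Cdca7, which recruits the chromatin remodeller Hells, read 1589 and 1485 at P0, 2217 and 2113 on mesenchyme 1 and 623 and 592 on mesenchyme 2. The groups did not overlap, and it fell 2.53-fold against P0 (adjusted p = 3.32e-05) and 3.57-fold against mesenchyme 1 (adjusted p = 6.55e-06). Cdca2 (Repo-Man), which targets a phosphatase to chromatin at mitotic exit, read 664 and 802 at P0, 924 and 881 on mesenchyme 1 and 360 and 366 on mesenchyme 2. It fell 2.01-fold against P0 (adjusted p = 0.00028), under 2-fold at -0.87 (log2) without the second P0 array and -0.99 without the first mesenchyme 2 array, and 2.48-fold against mesenchyme 1. The fall against P0 was also under 2-fold with 16 added (-0.98) and with 50 added (-0.92). Cdca3, a factor of mitotic entry, was -0.91 from P0 at adjusted p = 0.000747, and Cdca4 was -0.46.

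From P0, 12 members differed in opposite directions on the mesenchymes at adjusted p under 0.05, or 16.4%, a share close to the 15.3% of all features. Of these, 11 (15.1%, beside 6.92% of all features) were higher on mesenchyme 1 and lower on mesenchyme 2: Bub3, Cdca7, Kif11, Kif18a, Kif2a, Kif2c, Kif4, Smc1b, Smc2, Tpx2 and Ttk. Mad2l2 did the reverse. Kif4 rose on mesenchyme 1 by its brightest probe only, since its other probes gave -0.07 and 0.03 (log2) there and -0.86 and -0.89 on mesenchyme 2. Both comparisons used the same P0 arrays. Between the mesenchymes, each of these genes differed at adjusted p under 0.05; the differences not given above were -0.67 (log2) for Tpx2, -0.68 for Kif4 and -0.82 for Ttk.

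Several probes were present for 19 members, and in 6 of them (Cenpn, Cenpx, Kif1b, Ncaph2, Smc1a and Spc24) probes differed in sign for mesenchyme 2 minus P0. For Spc24 the brightest probe gave 0.35 (log2), while its other probe fell by 1.57, from a level of 189 at P0 to 63.7. For Smc3 the brightest probe gave -0.09 and a dim one -1.26. For Cdc20 the brightest gave -0.85 and another -1.36. For these 3 genes the choice of probe thus set whether the gene was called lower, whereas all 3 probes of Ncapd2 fell, by 1.29, 1.10 and 1.31.

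**Figure D4:**
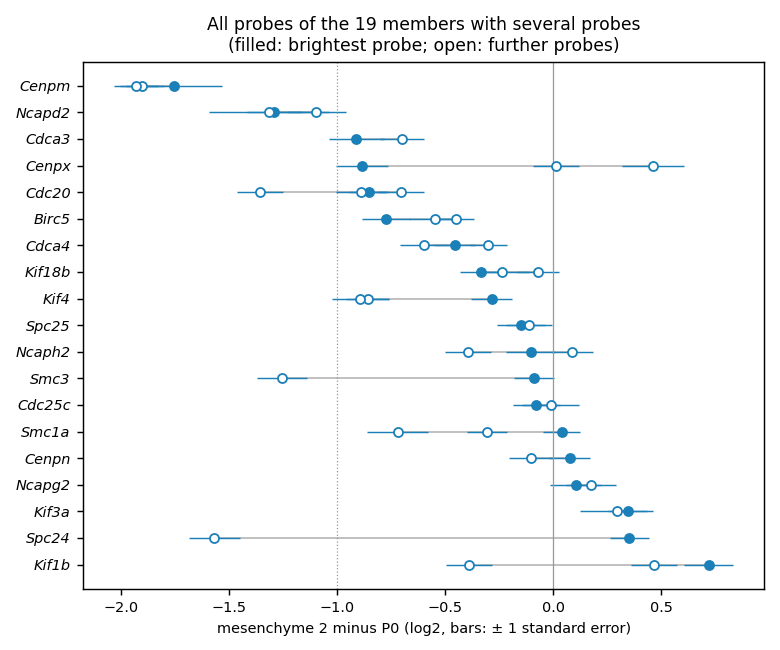
Log2 difference of mesenchyme 2 minus P0 for every probe of the 19 members with several probes, with bars of 1 SE. Filled points are the brightest probe of each gene and the dotted line marks a 2-fold fall; the probes of Cenpm and Ncapd2 lie close together and those of Spc24 on either side of 0.

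Genes that the symbol pattern does not reach were taken from wider lists of the cell cycle. Of 51 further mitosis genes measured, 5 (9.80%) fell on mesenchyme 2 against P0 and 6 (11.8%) against mesenchyme 1, close to the 8.46% and 11.5% of all features. With no limit on the fold, 51.0% and 74.5% of them were lower, beside 30.9% and 33.8% of all features. None rose in either, with 5 higher at an unadjusted p under 0.05 in each by limma, and medians were -0.27 and -0.59 (log2). Among them Ube2s and Ube2c, the ubiquitin-conjugating enzymes of the anaphase-promoting complex, fell by 1.43 and 1.18 against P0. The kinase Melk rose by 1.42 on mesenchyme 1 against P0 and was -2.50 from that level on mesenchyme 2.

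Of 46 S phase and replication genes, 17 (37.0%) fell on mesenchyme 2 against P0 and 21 (45.7%) against mesenchyme 1, beside 8.46% and 11.5% of all features. None rose in either, beside 10.3% and 13.9% of all features, with 0 higher at an unadjusted p under 0.05 by limma, and medians were -0.78 and -0.95. The cyclin Ccne1 and the dUTPase Dut fell by 1.92 and 1.87 against P0. The helicase subunit Mcm7 and the chromatin regulator Atad2 rose on mesenchyme 1 by 2.04 and 2.29 and were -3.20 and -3.04 from there on mesenchyme 2, all 4 differences called. Pcna, the replication clamp, had group levels of 484 at P0, 502 on mesenchyme 1 and 283 on mesenchyme 2, under 2-fold.

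Of 21 brakes of the cell cycle, 3 (14.3%) rose on mesenchyme 2 against P0, near the 10.3% of all features, and none fell (4 lower at an unadjusted p under 0.05 by limma). Against mesenchyme 1, 4 (19.0%) rose, near the 13.9% of all features, and 1 fell. On mesenchyme 2 with no limit on the fold, 10 were higher than P0 and 4 lower, beside 33.6% and 30.9% of all features. Against mesenchyme 1, 12 were higher and 2 lower, beside 35.9% and 33.8%. Btg1, an antiproliferative factor, rose by 2.18 (log2) and Cdkn1a, the inhibitor p21, by 1.10 against P0, and Cdkn1a levels were 609, 514 and 1305 at P0, mesenchyme 1 and mesenchyme 2. Sesn1, a stress-induced regulator, fell by 1.03 against mesenchyme 1. Of 4 G1 cyclins and regulators, Ccnd1 and Myc fell by 3.20 and 1.06 on mesenchyme 2 against P0 and Ccnd2 rose by 1.31. Ccnd1, a D cyclin that drives G1, had levels of 958, 852 and 104. Pou5f1, the pluripotency factor Oct4, had levels of 2833, 2280 and 1018.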

How the data were processed

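RNA was measured on 6 Illumina bead arrays, 2 for each of 3 groups, with groups taken from the sample titles. The deposited values are probe intensities on a linear scale, with array medians over all probes of 128 to 136, near enough to read as already normalized. The submitters' processing notes name BeadStudio, without its role. How background and scale were set is not given in the sources used here. Another deposited table of 12 value columns was not used, since its column names match no label. The number of arrays limits the precision.

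Probes took the platform symbol (10475 with 1 symbol, 622 with none; matching by Entrez ID changed 0 symbols), and the brightest probe stood for a gene. Log2 intensities of 8396 features were fitted with limma 3.58.1 in R 4.3.3 (1 mean per group, two-sided, Benjamini-Hochberg over all features of a comparison, 3 residual and 3.81 prior degrees of freedom). A call needed adjusted p under 0.05 and 2-fold. On simulated data for mesenchyme 2 against P0 over 8396 features, 97 of 100 changes of 1.5 and 98 of 100 of 2 (log2) were recovered, with 1 false call. The simulated noise was the spread between arrays of a group, so these rates do not cover differences between cultures. Changes smaller than 1.5, as most calls here are, were not simulated.

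Members and gene lists were chosen with earlier results of these data known. Members called in any comparison were named, with each array's value for at most 4 a role; from other lists, at most the 2 largest rises and falls a comparison, plus Sox17, Pcna, Cdkn1a, Ccnd1 and Pou5f1 (Mki67 had no named probe). Alternatives varied the offset, normalization, filter, probe choice, variance prior, threshold, array set and block.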

Additional observations from a re-analysis of the deposited data

Results flagged for a closer look

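Mesenchyme 2 and mesenchyme 1 differed for 20 members (mesenchyme 2 minus mesenchyme 1, log2, limma, called at adjusted p under 0.05 and 2-fold). The 20 are 27.4% of the members, close to the 25.4% of all features called in that comparison. These are the calls described above, so they add no further evidence. Both groups were passaged, and the unpassaged cells were on gelatin, so an effect of passage alone was not tested. Among entry and checkpoint genes the differences were -1.37 for Plk1, -1.31 for Cdc25a, -1.49 for Bub1b, -1.25 for Bub3, -1.45 for Espl1 and 1.42 for Mad2l2. Among chromosome structure genes they were -1.88 for Smc1b, -1.75 for Smc2, -1.52 for Top2a, -1.39 for Ncapd2, -1.19 for Ncapd3 and -1.26 for Cdca5. For the kinetochore gene Cenpm the difference was -1.61. Among motors they were -1.64 for Kif11, -1.50 for Kif18a, -1.30 for Kif2c, -1.04 for Kif23 and -1.19 for Kif2a. For Cdca7 and Cdca2 they were -1.83 and -1.31.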

How the results depend on the processing

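No direction reversed among the called results under the alternatives run. Adding 50 to every intensity left 0 members called on mesenchyme 1 against P0 in limma (32 higher and 12 lower at an unadjusted p under 0.05), 8 on mesenchyme 2 against P0 and 13 between the mesenchymes, with medians of -0.32 and -0.47 for the last 2. The 13 were all lower, the rise of Mad2l2 being lost. With 50 added, 1.12%, 8.55% and 12.4% of all features were called in the same order of comparisons. Testing against a 2-fold change left 0 (1 at an unadjusted p under 0.05), 3 and 11, beside 0.667%, 8.08% and 13.4% of all features. Dropping the fold limit gave 34, 56 and 54 members (46.6%, 76.7% and 74%), beside 48.2%, 64.5% and 69.7% of all features. Leaving out each array in turn gave 2 to 4, 12 to 15 and 19 to 21 calls, with medians of 0.07 to 0.14, -0.53 to -0.45 and -0.63 to -0.57; a group left with 1 array is then assumed to vary like the others. Same-numbered arrays did not deviate together (correlations of -0.00307, -0.0073 and 0.0107 between groups), so the numbers do not pair them; the fit with a replicate block gave 3, 14 and 20 calls and changed no call. Centring, quantile normalization, a mean intensity of at least 50 (65 members), the mean of all probes, an intensity trend in the variance and 16 added kept every count within 1.5 times the reported one. With the mean of all probes, Cdc20 (-1.01) and Smc3 (-1.21) also passed between the mesenchymes. Searching 100 bases before to 50 after the start left 28, 34 and 2 promoters with the homology region, the CCAAT box and the E2F-type site. Normalizing the scanner table was not run, since its columns match no sample. Dim probes such as Pttg1 and Smc2 limit what can be read from their folds, and 1 culture a group limits all p-values.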
